A study of Mus musculus with 3 samples.

Results

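The 6 genes described here are the mouse Fc gamma receptor genes Fcgr1, Fcgr2b, Fcgr3 and Fcgr4, the gene of their shared signalling chain Fcer1g, and Syk, the kinase that this chain recruits. They were chosen by gene name, and all 6 were found among the 54532 genes of an RNA-seq table from mouse hippocampus. The table holds 3 libraries, 1 per genotype, from mice aged 10 months on a C57BL/6 background. WT is the wild type. The PS19 library came from the tau model of that name, in which a mutant human tau transgene is driven by the mouse Prnp promoter. The third genotype, PS19 Zbp1+/-, adds the loss of 1 allele of Zbp1, a sensor of Z-form nucleic acids, to the PS19 background. Neither the sex of the mice nor any pooling of animals was given in the sources used here. With 1 library per genotype there was no replicate error, so no p-value was computed. Intervals below are exact 95% intervals that cover counting error only, and every difference is one between libraries.

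Fc gamma receptors bind the constant part of IgG and let phagocytes sense antibody-coated particles and immune complexes. Fcgr1, Fcgr3 and Fcgr4 encode activating receptors, which pair with the Fcer1g chain. When the receptors are cross-linked, Src-family kinases phosphorylate the tyrosine-based activation motif (ITAM) of Fcer1g, and Syk docks there and starts phagocytosis and the oxidative burst. Fcgr2b encodes the inhibitory receptor, which carries an inhibitory motif (ITIM) of its own and recruits the phosphatase encoded by Inpp5d. In the brain these genes are mainly expressed by microglia and by macrophages at the borders, and Syk also serves other ITAM receptors, such as Trem2 with its adaptor Tyrobp.

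Expression was measured as FPKM, a read count divided by the gene's length and by the size of the library. Whole reads could be recovered from these values, with totals of 16400328 to 17109734 per library. Reads of Zbp1, the targeted gene, numbered 5 for WT, 91 for PS19 and 0 for PS19 Zbp1+/-. Hippocampal neuron markers such as Prox1 and Slc17a7 were present in all 3 libraries, and the summed FPKM of 8 such markers was 642 to 940. The PS19 Zbp1+/- library stood apart in several ways. It alone had reads of 4 Y-linked genes, and it had 0 reads of Xist. The summed FPKM of 6 choroid plexus markers was 10.5 there, against 3113 in WT and 1904 in PS19. For 5 blood markers it was 3.44 there, against 19.0 in WT and 15.8 in PS19. It also held fewer weakly expressed genes: of 2103 genes with 15 to 60 reads in both other libraries, 56 had no read in it, or 2.66% (2.02% to 3.44%), against 2 of 1687 genes, or 0.119%, for WT by the same count and 0 of 1839 genes for PS19, which allows up to 0.200%. The part of sex, dissection and library complexity in the results below was not tested, and with 1 library per genotype none of them can be told apart from the genotype.

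Promoter windows are printed for the 4 receptor genes. Their transcripts were highest in PS19, as were those of Fcer1g and Syk, whose windows are not printed. The windows run from 250 bases before to 50 bases after the start site, and RefSeq's table for GRCm38.p6 held 8 windows for the 6 genes. Capitals mark matches, on either strand, to the PU box GAGGAA bound by the myeloid factor PU.1, or to the interferon element, which is 2 copies of GAAA spaced by any 2 bases. The windows are chr3:96293920-96294219 for Fcgr1, chr1:171059354-171059653 for Fcgr3 and chr1:170976022-170976321 for Fcgr2b, all on the minus strand, and chr1:171018676-171018975 for Fcgr4 on the plus strand.
Fcgr1: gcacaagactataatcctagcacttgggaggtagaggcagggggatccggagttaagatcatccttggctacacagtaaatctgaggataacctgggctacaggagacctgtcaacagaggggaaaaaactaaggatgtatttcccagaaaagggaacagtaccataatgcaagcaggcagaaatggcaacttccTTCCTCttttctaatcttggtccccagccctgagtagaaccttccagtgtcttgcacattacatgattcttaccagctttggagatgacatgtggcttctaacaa
Fcgr3: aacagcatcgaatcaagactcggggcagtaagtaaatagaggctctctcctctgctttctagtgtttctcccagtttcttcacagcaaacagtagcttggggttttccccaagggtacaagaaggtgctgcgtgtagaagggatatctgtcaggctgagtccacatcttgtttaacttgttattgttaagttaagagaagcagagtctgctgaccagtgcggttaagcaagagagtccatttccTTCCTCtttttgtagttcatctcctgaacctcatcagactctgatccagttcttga
Fcgr4: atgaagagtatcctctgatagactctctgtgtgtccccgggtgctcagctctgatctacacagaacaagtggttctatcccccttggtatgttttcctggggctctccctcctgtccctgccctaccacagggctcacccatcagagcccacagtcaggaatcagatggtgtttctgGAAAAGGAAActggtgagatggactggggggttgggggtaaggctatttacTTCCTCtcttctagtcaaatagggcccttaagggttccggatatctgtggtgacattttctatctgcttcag
Fcgr2b: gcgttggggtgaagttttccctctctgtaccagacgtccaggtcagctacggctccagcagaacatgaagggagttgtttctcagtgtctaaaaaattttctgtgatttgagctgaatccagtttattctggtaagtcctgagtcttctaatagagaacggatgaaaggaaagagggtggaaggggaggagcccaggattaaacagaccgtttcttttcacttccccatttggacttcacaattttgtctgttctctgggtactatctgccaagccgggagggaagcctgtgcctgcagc

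The 3 activating receptors each held a PU box close to the start site, written TTCCTC on the strand shown. It began at position -55 from the start site in Fcgr1, -6 in Fcgr3 and -22 in Fcgr4. Another Fcgr3 window, not printed, has a different start site, from which the same PU box began at -15. Fcgr4 also held the interferon element as GAAAAGGAAA at position -73. The windows of Fcgr2b and Fcer1g matched neither motif, and of the 2 Syk windows 1 held a PU box. Among 32851 promoter windows of that length, 28.3% held the PU box and 3.44% the interferon element. The matches describe letters and not binding.

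In all 3 libraries, the signalling chain and Fcgr3 were the most abundant of the 6 transcripts per length, and the order of the rest changed. In WT the FPKM was 6.57 for Fcer1g, 4.84 for Fcgr3, 1.5 for Fcgr1, 0.721 for Fcgr2b, 0.446 for Syk and 0.0461 for Fcgr4. In PS19 it was 23.5 for Fcer1g, 20.0 for Fcgr3, 5.24 for Fcgr2b, 4.29 for Fcgr1, 1.61 for Fcgr4 and 1.20 for Syk. In PS19 Zbp1+/- it was 7.81 for Fcer1g, 5.6 for Fcgr3, 0.903 for Fcgr1, 0.439 for Syk, 0.218 for Fcgr2b and 0 for Fcgr4. Fcgr2b thus stood between Fcgr1 and Syk in WT, above Fcgr1 in PS19, and below Syk in PS19 Zbp1+/-. Fcgr4 and Syk did not differ beyond counting error in PS19, with a ratio of 1.34 (0.910 to 1.94). By the lengths of the table, all other neighbours in these orders differed beyond counting error, the closest being Fcer1g and Fcgr3 in PS19 with a ratio of 1.18 (1.03 to 1.34). Annotated length bears on these comparisons, and with the longest principal transcript in its place Fcgr4 came below Syk in PS19, at a ratio of 0.770 (0.521 to 1.11). By that length, 2 further pairs no longer differed beyond counting error. Fcgr1 to Fcgr2b in WT went from 2.08 to 1.27 (0.899 to 1.80), and Fcgr1 to Syk in PS19 Zbp1+/- went from 2.06 to 1.18 (0.765 to 1.79).

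**Figure D1:**
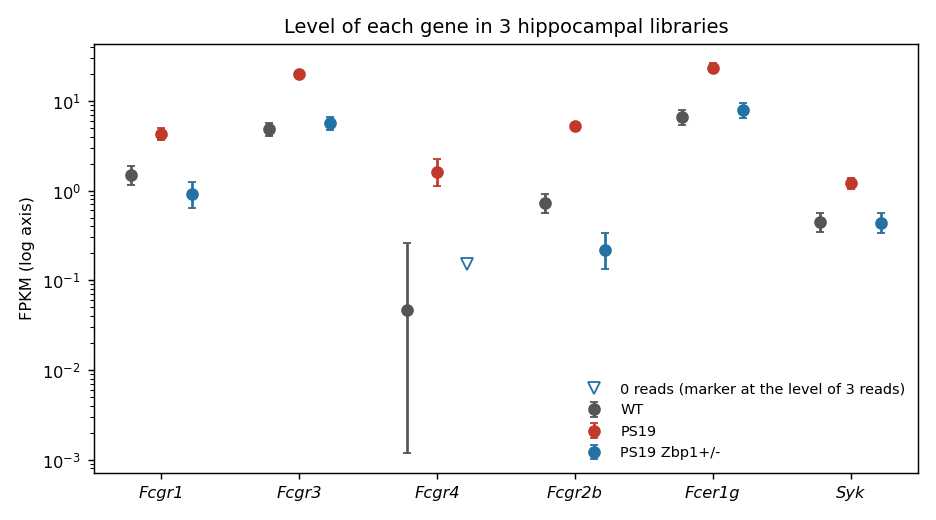
FPKM of the 6 genes (log axis) in the WT, PS19 and PS19 Zbp1+/- libraries, with 95% Poisson intervals for counting error. PS19 is highest for each gene, and the open triangle marks Fcgr4 in PS19 Zbp1+/-, where it had 0 reads, at the level of 3 reads.

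PS19 had the highest level of each of the 6 genes, and its interval overlapped that of neither other library. On the scale of log2(FPKM + 1), PS19 exceeded WT by 2-fold or more for 5 of the 6 genes, and for Syk it did not, while 0 were lower by that much. The background was 2.20% higher and 0.291% lower, over 12703 protein-coding genes that had an FPKM of 1 or more in WT or PS19. The median difference of the 6 genes was 1.51, and that of all genes tested was -0.03. The same 5 genes were 2-fold or more lower when PS19 Zbp1+/- was set against PS19, and 0 were higher, where the background was 5.16% lower and 2.0% higher of 12772 genes. The median difference there was -1.48 for the 6 genes and 0.04 for all genes. Between PS19 Zbp1+/- and WT, 3 of the 6 genes (Fcgr1, Fcgr3 and Fcer1g) reached an FPKM of 1, and 0 of these 3 were 2-fold higher or lower, against backgrounds of 1.07% higher and 2.28% lower. Both comparisons of PS19 use the same PS19 library, so a high value there enters both. Fcgr2b, Fcgr4 and Syk reached an FPKM of 1 in PS19 alone, so they passed the filter only through the library where they are high. The same held for Fcgr1 between PS19 Zbp1+/- and PS19, with an FPKM of 0.903 in PS19 Zbp1+/-.

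Fcgr3 (ENSMUSG00000059498, chromosome 1, 171051174 to 171064935, minus strand) encodes the main low-affinity activating receptor, and its window is printed above. Its reads numbered 145 for WT, 600 for PS19 and 154 for PS19 Zbp1+/-. Per library size, PS19 was 4.13 times WT (3.44 to 4.99). PS19 Zbp1+/- was 0.280 times PS19 (0.233 to 0.335). PS19 Zbp1+/- and WT lay close together, with a ratio of 1.16 whose interval of 0.917 to 1.46 includes 1.

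Fcgr1 (ENSMUSG00000015947, chromosome 3, 96282909 to 96293969, minus strand) encodes the high-affinity receptor, which binds monomeric IgG and is known as an interferon-gamma response gene. WT had 67 reads of it, PS19 had 192 and PS19 Zbp1+/- had 37. The ratio of PS19 to WT was 2.86 (2.15 to 3.84), and that of PS19 Zbp1+/- to PS19 was 0.210 (0.144 to 0.301). Unlike Fcgr3, it was also lower in PS19 Zbp1+/- than in WT beyond counting error, with a ratio of 0.602 (0.392 to 0.913).

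Fcgr4 (ENSMUSG00000059089, chromosome 1, 171018920 to 171029761, plus strand) encodes a receptor for the mouse IgG2 subclasses. WT had 1 read of it, PS19 had 35 and PS19 Zbp1+/- had 0. Reads of this gene therefore came almost wholly from the PS19 library. The ratio of PS19 to WT was 34.9, with a wide interval of 5.87 to 1419 that follows from the single WT read. PS19 Zbp1+/- was at least 10.7-fold lower than PS19, taken against 3 reads. The level that 3 reads give is an FPKM of 0.138 in WT and 0.151 in PS19 Zbp1+/-. A difference between WT and PS19 Zbp1+/- was not detectable at this depth.

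Fcgr2b (ENSMUSG00000026656, chromosome 1, 170958617 to 170976547, minus strand), the inhibitory receptor, gave 72 reads from WT, 525 from PS19 and 20 from PS19 Zbp1+/-. PS19 stood further from both other libraries in Fcgr2b than in the activating Fcgr1 and Fcgr3, with intervals that did not overlap theirs. PS19 was 7.28 times WT (5.68 to 9.44), and PS19 Zbp1+/- was 0.0416 times PS19 (0.0252 to 0.0649). PS19 Zbp1+/- was also below WT, with a ratio of 0.303 (0.175 to 0.503). On the log2(FPKM + 1) scale its differences were 1.86, -2.36 and -0.50 in the same order, and of the 12772 genes tested between PS19 Zbp1+/- and PS19 it ranked 65 from the lowest.

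Fcgr2b and Fcgr3 share near-identical sequence in the part that encodes the IgG-binding domains, which bears on their separation. Their principal transcripts aligned over 512 bases at 96.3% identity, which is 14.4% of the Fcgr2b transcript. Taken from Fcgr3, the stretch was 509 bases, or 37.8% of its shorter transcript, and how the authors treated reads that fit both genes was not given. With the reads of both genes summed, PS19 was 5.17 times WT (4.47 to 6.01) and PS19 Zbp1+/- was 0.169 times PS19 (0.143 to 0.198). For PS19 Zbp1+/- over WT it was 0.874 (0.712 to 1.07). The sum kept the directions of the first 2 comparisons and did not separate PS19 Zbp1+/- from WT.

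**Figure D2:**
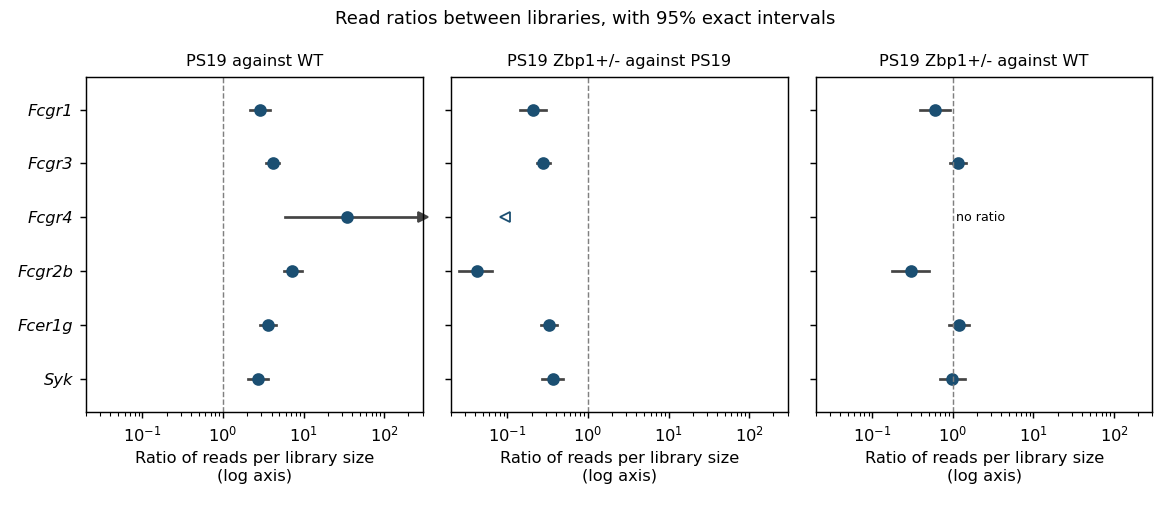
Ratio of reads per library size (log axis) for the 6 genes in 3 comparisons, with exact 95% intervals and a dashed line at 1. Fcgr2b has the lowest ratio with an interval in both comparisons of PS19 Zbp1+/-, at 0.0416 and 0.303, and the open triangle for Fcgr4 is a bound against 3 reads.

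The balance of activating to inhibitory transcripts followed from these values. The summed FPKM of Fcgr1, Fcgr3 and Fcgr4 was 8.86 times that of Fcgr2b for WT (6.75 to 11.7), 4.94 times for PS19 (4.42 to 5.52) and 29.8 times for PS19 Zbp1+/- (18.8 to 49.9). The 3 intervals did not overlap, and the ratio was lowest in PS19, where all 4 receptor transcripts were highest. With principal transcript lengths the values were 6.61, 3.70 and 22.8 in the same order. Fcgr3 against Fcgr2b alone gave 6.72 (5.03 to 9.04), 3.81 (3.38 to 4.29) and 25.7 (16.1 to 43.2). In PS19 Zbp1+/- the denominator rests on 20 reads.

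The makeup of the 4 receptor transcripts differed accordingly. Their summed FPKM was 7.11 for WT, 31.1 for PS19 and 6.73 for PS19 Zbp1+/-. Fcgr3 gave 68.1%, 64.2% and 83.3% of it, and Fcgr1 gave 21.1%, 13.8% and 13.4%. Fcgr2b gave 10.1%, 16.8% and 3.24%, and Fcgr4 gave 0.649%, 5.18% and 0%. Thus the WT and PS19 Zbp1+/- libraries had similar totals and differed in the parts taken by Fcgr3, Fcgr1 and Fcgr2b.

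**Figure D3:**
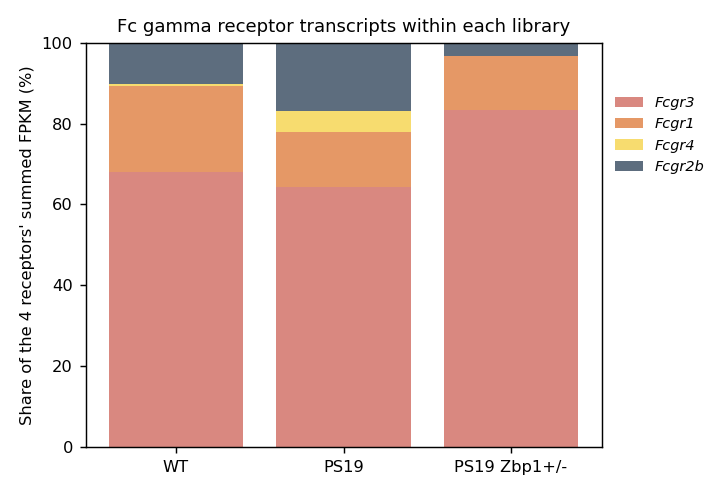
Share of each receptor gene in the summed FPKM of the 4 receptors, in percent, for each library. The Fcgr2b part is 16.8% in PS19 and 3.24% in PS19 Zbp1+/-, and Fcgr4 is visible in PS19, at 5.18%.

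Fcer1g (ENSMUSG00000058715, chromosome 1, 171229572 to 171234365, minus strand), the ITAM chain on which surface expression of the activating receptors depends, gave 99 reads from WT, 355 from PS19 and 108 from PS19 Zbp1+/-. PS19 was 3.58 times WT (2.86 to 4.52), and PS19 Zbp1+/- was 0.332 times PS19 (0.265 to 0.413). PS19 Zbp1+/- over WT was 1.19 (0.897 to 1.58), which includes 1. Fcer1g kept close to Fcgr3 in level, at 1.36 times Fcgr3 in WT (1.04 to 1.76), 1.18 times in PS19 and 1.39 times in PS19 Zbp1+/- (1.08 to 1.79).

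Syk (ENSMUSG00000021457, chromosome 13, 52583173 to 52648792, plus strand) gave 72 reads from WT, 194 from PS19 and 65 from PS19 Zbp1+/-. In reads, PS19 was 2.69 times WT (2.04 to 3.58), and PS19 Zbp1+/- was 0.366 times PS19 (0.272 to 0.487). PS19 Zbp1+/- and WT had a ratio of 0.984 (0.693 to 1.40). On the log2(FPKM + 1) scale its differences were 0.60 and -0.61, below the threshold of 1, since that scale understates changes of genes near an FPKM of 1. Counted by reads set to at least 3, all 6 genes were higher in PS19 than in WT by 2-fold or more, where the background was 4.51%. By the same count all 6 were lower by 2-fold or more when PS19 Zbp1+/- was set against PS19, where it was 9.65%.

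Because the RNA came from whole tissue, fewer cells of a type and less RNA per cell cannot be told apart. Microglia markers were higher in PS19 as well. The summed FPKM of 12 markers, Trem2 among them, was 101 for WT, 243 for PS19 and 115 for PS19 Zbp1+/-, and all 12 were detected in each library. PS19 was thus 2.39 times WT in this sum, with 5 of 12 markers at least 2-fold higher, where the background was 2.20%. P2ry12, a receptor of resting microglia, had 490, 444 and 349 reads. Per 100 FPKM of microglia markers, the 6 genes together stood at 13.9 for WT, 23.0 for PS19 and 13 for PS19 Zbp1+/-. Relative to the markers, Syk and Fcgr1 differed little between PS19 and WT, at 1.12 and 1.19 times. Fcer1g was at 1.49 times, Fcgr3 at 1.73 times, Fcgr2b at 3.04 times and Fcgr4 at 14.6 times, the last from 1 read in WT. Between PS19 Zbp1+/- and WT the same measure was 1.02 for Fcgr3, 1.05 for Fcer1g, 0.868 for Syk, 0.531 for Fcgr1 and 0.267 for Fcgr2b.

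**Figure D4:**
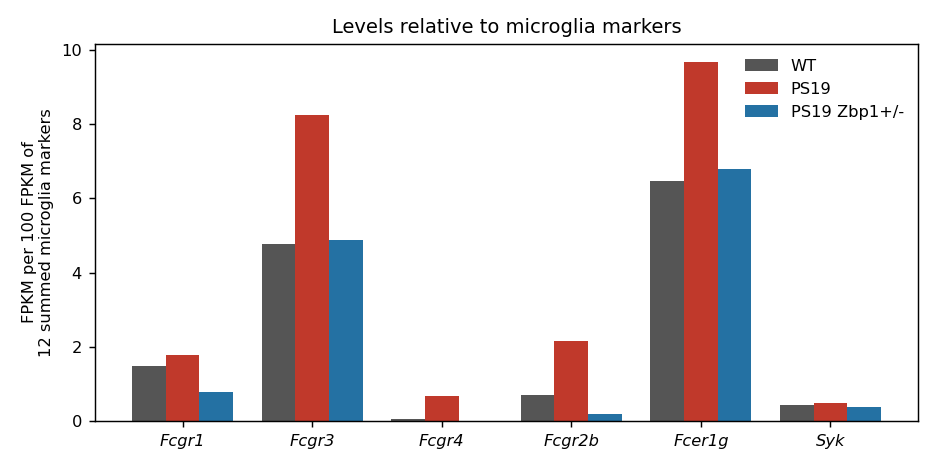
FPKM of each gene per 100 FPKM of 12 summed microglia markers, by library. Fcgr2b and Fcgr3 are higher in PS19 than in WT on this scale (2.16 against 0.711 and 8.24 against 4.78), while Syk stays between 0.382 and 0.494.

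Markers of other cells that can express Fc receptors also differed. Of 8 markers of border macrophages, the summed FPKM was 4.08 for WT, 5.02 for PS19 and 0.529 for PS19 Zbp1+/-, where 3 of the 8 were at 0 reads. Mrc1, a mannose receptor that defines these cells, had 80, 119 and 6 reads. This sum was low in PS19 Zbp1+/-, as Fcgr2b and Fcgr1 were, and its part in their levels was not tested. For 8 neutrophil markers the summed FPKM was 1.65, 6.96 and 1.25, so the sum was highest in PS19, as the 6 genes were. The granule genes S100a8 and S100a9 had 5, 18 and 0 reads and 7, 23 and 3 reads, Ngp had 5, 29 and 0, and the defining marker Ly6g was at 0 in all 3 libraries. Of the 8, 4 were tested between PS19 Zbp1+/- and PS19, and all 4 were at least 2-fold lower, where the background was 5.16%. These 4 reached an FPKM of 1 only in PS19, so they were tested through the library where they are high. Camp and Mpo were highest in PS19 Zbp1+/-, with 0, 1 and 6 reads and 7, 0 and 15 reads. For 6 monocyte markers the summed FPKM was 5.08, 9.06 and 8.10, most of it from Fn1 and Vcan, which other cells express. The defining Ccr2 had 4, 8 and 0 reads and Ly6c2 had 8, 10 and 0. For 6 B cell markers it was 0.445, 0.704 and 1.31, with Ms4a1 at 0 reads in all 3. For 9 markers of T and NK cells it was 0.446, 1.84 and 0.266, and 8 of the 9 had their level in PS19 above that in WT. Cd3d had 0, 9 and 0 reads, Cd8a had 7, 18 and 0, and Nkg7 had 3, 13 and 0. Cd4 was highest in PS19 Zbp1+/-, with 5, 10 and 17 reads, and Ncr1 was at 0 in all 3. For 5 mast cell markers the summed FPKM was 14.2, 8.54 and 23.0, nearly all from Kit, and for 5 dendritic cell markers 3.96, 3.85 and 3.32. Their part was not tested either.

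Of 28 genes of proximal Syk signalling, 24 were tested between PS19 and WT, and 6 of these were at least 2-fold higher and 0 lower. From PS19 to PS19 Zbp1+/-, 7 of 24 were at least 2-fold lower and 0 higher. The backgrounds over all genes tested, here and for the lists below, were 2.20% higher and 0.291% lower in the first comparison. In the second they were 5.16% lower and 2.0% higher. The list medians were 0.59 and -0.79. Lyn, a Src-family kinase that phosphorylates the ITAM, had 103, 385 and 145 reads, in the order of WT, PS19 and PS19 Zbp1+/- that is kept below, and a difference of 1.39 between PS19 and WT. Prkcd, a protein kinase C, had 780, 2211 and 148 reads, and its difference of -3.16 between PS19 Zbp1+/- and PS19 was the most negative of the list. Of the adaptors, Grb2 had 2441, 2207 and 2250 reads and Shc1 had 223, 385 and 167.

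Of 16 phagocytic effectors, all were tested between PS19 and WT, with 6 at least 2-fold higher and 0 lower. Set against PS19, PS19 Zbp1+/- was at least 2-fold lower for 7 and higher for 0, with the same backgrounds. Cyba, a subunit of the phagocyte NADPH oxidase, had 113, 368 and 70 reads, and Nckap1l, a haematopoietic regulator of actin, had 121, 558 and 202. Rac1, which is widely expressed, had 5538, 4913 and 4836 reads.

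Of 18 genes listed as inhibitors or other regulators of ITAM signalling, 11 were tested between PS19 and WT. At least 2-fold higher were 2 of these, Inpp5d and Ptpn6. Inpp5d, which encodes the lipid phosphatase recruited by the Fcgr2b receptor, had 203, 645 and 224 reads. Unlike Fcgr2b, it was not below WT in PS19 Zbp1+/-, with a ratio of 1.20 (0.990 to 1.46). Ptpn6, a tyrosine phosphatase of haematopoietic cells, had 54, 243 and 59 reads. Of 12 genes tested between PS19 Zbp1+/- and PS19, 4 were at least 2-fold lower and 0 higher.

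A list of other ITAM receptors, adaptors and related genes held 25, not all of which signal through an ITAM and Syk. Of these, 8 were tested between PS19 and WT, and 3 were at least 2-fold higher. Of 8 tested between PS19 Zbp1+/- and PS19, 6 were at least 2-fold lower. Tyrobp, the adaptor of Trem2, had 131, 582 and 114 reads, and the integrin chain Itgb2 had 73, 529 and 93. Clec7a, the beta-glucan receptor dectin-1, had 1, 428 and 4 reads, but the table does not class it as protein-coding, so it is in none of these counts. The ratio of Tyrobp was 4.43 for PS19 over WT (3.66 to 5.40), next to 3.58 for Fcer1g. Of the listed genes, 11 had no read in WT, 7 had none in PS19 and 14 had none in PS19 Zbp1+/-.

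Among 14 other Fc receptors and Fc-binding proteins, 3 were tested between PS19 and WT, and Fcrls alone of these was at least 2-fold higher. Fcrls, a microglial Fc receptor-like gene, had 128, 955 and 413 reads. It was above WT in PS19 Zbp1+/-, with a ratio of 3.52 (2.88 to 4.32), where Fcgr1 and Fcgr2b were below it. Trim21, a cytosolic antibody receptor, had 45, 137 and 25 reads. Fcgrt, the neonatal Fc receptor that recycles IgG, had 433, 461 and 303 reads, and its ratio of 1.06 for PS19 over WT (0.93 to 1.21) includes 1.

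Transcripts of the ligand were scarce. The IgG heavy chain genes Ighg1, Ighg2b, Ighg2c and Ighg3 had between 0 and 12 reads in each library. Igkc, the kappa light chain constant gene, had 16, 314 and 4 reads, so that PS19 was 19.6 times WT (11.9 to 34.7). Ighm, the IgM heavy chain gene, had 295, 809 and 94 reads, and Igha, that of IgA, had 25, 96 and 0. The table classes these as immunoglobulin genes, so they are in no count of protein-coding genes. The 6 B cell markers had 17, 32 and 51 reads in all, so they did not follow the order of Igkc. Immune complexes can also carry classical complement, and of 8 such genes 6 were tested, of which 5 were 2-fold or more higher from WT to PS19 and 5 were 2-fold or more lower from PS19 to PS19 Zbp1+/-. The backgrounds were again 2.20% higher and 5.16% lower. The largest differences were those of C4b, at 3.47 and -2.89, and C3, at 2.4 and -3.09.

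Fcgr2b, Fcgr4, Fcgr3 and Fcer1g lie within about 276 kb of each other on chromosome 1, which allowed a comparison with their neighbours. Within 250 kb of this stretch, 27 other genes are protein-coding, and 22 of these were tested between PS19 and WT. On the log2(FPKM + 1) scale, 0 of the 22 were at least 2-fold higher or lower. The backgrounds were 2.20% higher and 0.291% lower, so this count is near the share of all genes. The median difference of the 22 was -0.11, with a range of -0.47 to 0.84. The highest was Arhgap30, a GTPase-activating gene of leukocytes, with 36, 181 and 55 reads. Its read ratio of PS19 to WT was 5.02 (3.49 to 7.39), above the 4.13 of Fcgr3. By reads set to at least 3, it was the 1 neighbour of 22 that was 2-fold or more higher, where the background was 4.51%. For the comparison of PS19 Zbp1+/- with PS19, 21 neighbours were tested, and their median difference was -0.01. Of these, 3 were at least 2-fold lower, namely Cfap126, a cilia gene, Pcp4l1 and the junction gene F11r, and by reads 4 were, with Arhgap30 added. The backgrounds were 5.16% and, by reads, 9.65%. Cfap126 and Pcp4l1 lie between Fcgr3 and Fcer1g, with 96, 115 and 11 reads and 1245, 1524 and 582 reads.

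**Figure D5:**
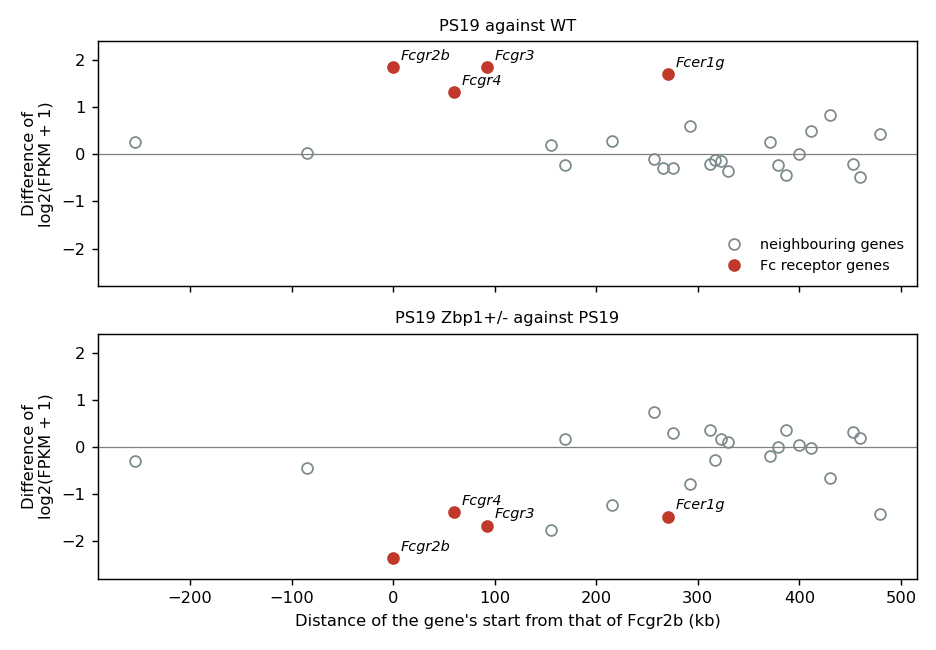
Difference of log2(FPKM + 1) for protein-coding genes tested around the Fc receptor genes of chromosome 1, against the distance of each gene's lower end from that of Fcgr2b in kb. In PS19 against WT the 4 Fc receptor genes lie at 1.32 to 1.86 and the 22 neighbours at -0.47 to 0.84.

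The 5 genes whose pair of differences lay nearest to the mean of the 6 genes, which was 1.40 for PS19 against WT and -1.50 for PS19 Zbp1+/- against PS19, were Cd84, Gm17304, Slfn8, Igfbp5 and Slc14a1. Likeness was the Euclidean distance over these 2 differences, from 3 libraries and 12875 genes, and it is a description of this table. Cd84, a leukocyte surface receptor, was nearest, at a distance of 0.0246, with 38, 272 and 24 reads. Igfbp5, a secreted binding protein of insulin-like growth factors, had 2162, 5547 and 1709 reads at a distance of 0.0888. Gm17304 rests on 2 reads in PS19 and 0 in both others. The 6 genes themselves lay at distances of 0.137 for Fcgr4 to 1.19 for Syk, at ranks 18 to 826 among all 12875.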

How the data were processed

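RNA-seq of mouse hippocampus was analysed from 1 table with 1 column per genotype. The authors deposited FPKM values, and per the submitters' processing notes Trim Galore 0.6.5, STAR 2.5.3a and featureCounts 2.0.4 were used with build mm39. The positions in the table equal those of GENCODE M21 (GRCm38) for 98.3% of the gene IDs found there, so positions are given as GRCm38. The gene lengths, in bases, are the union of exons for the 6 genes. The annotation used, strandedness and pooling are not given in the sources used here. FPKM times length was a whole multiple of 1 step, within 0.05, for 100% of values, which gave reads and the implied library sizes of 15826985 to 17287957. These sizes scale the read ratios, whose exact intervals are Clopper-Pearson, and, without molecular identifiers, reads may repeat 1 molecule. For PS19 Zbp1+/- the 17109734 recovered reads exceeded the implied size of 15826985, while for WT and PS19 they fell below it. Scaled by total recovered reads, PS19 Zbp1+/- over WT was 1.04 for Fcgr3, 1.07 for Fcer1g and 0.541 for Fcgr1. A ratio against 0 reads was taken against 3 reads. The measure for counts was the difference of log2(FPKM + 1), called at 2-fold, over the protein-coding genes that had an FPKM of 1 or more in 1 or both libraries.

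The 6 genes, the 7 gene lists and the 14 marker lists were chosen with earlier results of these data known. From each list up to 4 genes were named, the 2 with the highest difference in PS19 against WT and the 2 with the lowest in PS19 Zbp1+/- against PS19. A gene that this rule names is not reported here. Others (Grb2, Shc1, Rac1, Fcgrt, Igha, the IgG genes and single markers and neighbours) were named after their values were seen. Copies were sought with BLAST 2.17.0 in GENCODE M21 transcripts, over at least 100 bases. Alternatives covered pseudocounts, filters, scalings and thresholds. Read recovery, calls and intervals were tested on simulated data. Python 3.11.15, pandas 2.3.3 and scipy 1.17.1 were used.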

Additional observations from a re-analysis of the deposited data

How the results depend on the processing

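No paired analysis was possible because each genotype had 1 library, and for the same reason no library could be left out. In PS19 against WT the number of the 6 genes called higher was 5 or 6 under pseudocounts of 0.1 and 0.5, no filter, TPM, scaling by total reads or by the median ratio, a threshold of 1.5-fold, and read ratios. It was 0 at a threshold of 4-fold and 2 with a mean FPKM of at least 5, where only 2 genes, Fcgr3 and Fcer1g, were tested. In PS19 Zbp1+/- against PS19 the number called lower was 5 or 6 under the first set, 1 at 4-fold and 2 with a mean FPKM of at least 5. In PS19 Zbp1+/- against WT it was 0 in both directions under every alternative run, but in all of these except the one without a filter, at most 3 genes were tested and the filter kept Fcgr2b out. The Fcgr2b difference was -0.50, and it was past 2-fold under TPM, at -1.08, and with a pseudocount of 0.1, at -1.37. TPM moved the median difference of all genes in PS19 Zbp1+/- against PS19 from 0.04 to -0.23, and scaling by total reads moved it to -0.12. Over all genes TPM called 186 higher and 1495 lower there, against 255 and 659, and in PS19 against WT it called 582 higher and 60 lower, against 280 and 37. The difference of each of the 6 genes kept its sign in the first 2 comparisons under the pseudocounts and scalings tried. The widest ranges there were those of Fcgr4, 1.33 to 3.55 and -4.1 to -1.4 in the same order. Under the scalings, the Fcgr2b ratio of PS19 Zbp1+/- to WT was 0.272 to 0.300. Principal transcript lengths moved the activating to inhibitory ratio to 6.61 in WT and 3.70 in PS19. Calls by read ratio, summed reads of Fcgr2b and Fcgr3, and principal transcript lengths were chosen after seeing the data.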
